A study of Mus musculus with 4 samples.

Results

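The cytosolic ribosome is built from ribosomal RNA and a fixed set of ribosomal proteins, and 80 genes for those proteins were followed here across the cell classes of mouse prostate tumours. They were chosen by name: every gene symbol made of Rps or Rpl and a number (with a final a, l or x allowed), and Rpsa, Rplp0, Rplp1 and Rplp2. This took 80 of the 32285 genes in the count tables, 49 for the large subunit and 31 for the small subunit, all of them protein-coding genes on 19 chromosomes in the GENCODE annotation of the mouse genome build mm10. All 80 had at least 1 UMI (unique molecular identifier, a tag that lets each captured RNA molecule be counted once), and together they took 7424448 of 52693166 UMIs.

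The study compared prostate tumours of 2 genotypes, called DKO and TKO, with 2 libraries each. All animals carried Nkx3.1CreERT2 and the same floxed alleles, among them Smad4L/L (Smad4 is a TGF-beta signal transducer), and TKO carried Pygo2L/L besides. The Cre recombinase is induced by tamoxifen and driven from Nkx3.1, a gene of prostate epithelium, which directs recombination to epithelial cells and not to the immune and stromal cells that make up most of these libraries. Tumours were taken 10 or 17 weeks after tamoxifen; the labels do not say which library came from which time, how old the animals were or whether libraries came from separate animals, so a p-value over libraries measures only the spread between these libraries. Cells were dissociated, red cells were lysed, Annexin V-positive cells were removed, and samples carrying different hashtag antibodies were combined before droplet capture.

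The 4 libraries held 3508 cell barcodes, none shared between libraries, of which 3381 were kept with 9167770 to 18360201 UMIs per library. Median UMIs per cell were 8404 to 10310. Cells were clustered without using the 80 genes, and clusters were named from marker genes; a name such as neutrophil-like says only that those markers were raised. The 6 classes with at least 20 cells in every library were T and NK-like (924 cells), neutrophil-like (1116), dendritic-like (267), epithelial-like (200), macrophage and monocyte-like (180) and fibroblast-like (156), and 458 cells stayed unnamed. Pygo2, the gene targeted in TKO, was counted in epithelial-like cells 10 and 33 times for DKO and 25 and 4 times for TKO, or, as counts scaled to one common library total (CPM), 9.09, 8.70, 15.98 and 7.24. The libraries labelled TKO were thus on both sides of those labelled DKO; which part of the gene the floxed allele removes is not stated in the labels, so these counts of the transcript's end do not check the labels.

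Ribosomal protein mRNAs belong to the most abundant mRNAs of a growing cell. Many of them start with a C followed by a run of C and T, the 5′ terminal oligopyrimidine (TOP) motif, through which mTORC1 and the RNA-binding protein LARP1 set their translation and stability as a group. Neutrophils mature in the bone marrow and reduce their protein synthesis machinery on the way to a short life in tissue.

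The start sites below are shown because they carry, or lack, that run in the members whose levels are described later. Each window is 30 bases in RefSeq's GRCm38.p6 table, from 10 bases before to 20 bases after the annotated start, 5′ to 3′ on the gene's strand, and capitals mark an unbroken run of C or T that begins at the annotated start. Rps27 lies at chr3:90213629-90213658 on the minus strand, Rps6 at chr4:86857348-86857377 minus, Rps15a at chr7:118116128-118116157 minus, Rps18 at chr17:33955646-33955675 minus, Rpl35 at chr2:39005112-39005141 minus, Rps9 at chr7:3704031-3704060 plus, Rps25 at chr9:44407704-44407733 plus and Rps4x at chrX:102189372-102189401 minus.
Rps27: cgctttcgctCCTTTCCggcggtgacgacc
Rps6: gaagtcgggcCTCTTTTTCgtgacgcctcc
Rps15a: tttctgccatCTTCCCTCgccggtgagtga
Rps18: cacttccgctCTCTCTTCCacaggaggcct
Rpl35: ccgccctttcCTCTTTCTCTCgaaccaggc
Rps9: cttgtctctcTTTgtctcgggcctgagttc
Rps25: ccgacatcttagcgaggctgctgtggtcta
Rps4x: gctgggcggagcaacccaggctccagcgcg
Of the 60 members found in that table, 13 (21.7%) had a C at the annotated start followed by at least 4 further C or T, against 3.01% of all 27025 genes in it. Allowing such a run, read on the gene's strand, to begin within 10 bases of the start gave 38 members (63.3%) against 34.4% of all genes. Rps9, whose run begins with T, and Rps25 and Rps4x, which begin with A and G, have no such run at the annotated base; annotated starts can be off by some bases.

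The members spanned a wide range of levels, given here as CPM over all cells; the counts come from transcript ends and are not scaled by length, so they order captured molecules and say nothing of proteins. Rps29 (a small-subunit zinc-finger protein) was highest, with DKO libraries at 3879 and 4006 CPM and TKO libraries at 4341 and 4692 CPM. Rpl41 (the smallest ribosomal protein), Rplp1 (of the acidic stalk), Rps24 and Rps27 followed, with 160229 to 177007 UMIs each. The 5 lowest were Rpl29 with 29090 UMIs, Rps27l with 16628, Rpl3l with 234, Rpl39l with 29 and Rpl10l with 1. The last 3 are copies known for tissue-restricted expression, Rpl3l in heart and skeletal muscle and the other two in testis, and the other 77 members had 16628 UMIs or more each. For 59 members GENCODE holds at least 1 pseudogene, of any type, named after the member with the ending -ps. Pseudogenes under other names were not counted. Reads that fit a gene and its copies equally well could have been lost or split at counting.

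Ribosomal protein genes took 20.4% ± 0.684 (SD, n = 4 libraries) of all UMIs in T and NK-like cells and 4.11% ± 0.735 in neutrophil-like cells. The classes in between were dendritic-like at 16.9% ± 0.509, fibroblast-like at 14.7% ± 0.773, macrophage and monocyte-like at 13.4% ± 1.07 and epithelial-like at 11.5% ± 1.754. Library by library, T and NK-like cells stood at 19.8% and 21.4% for DKO and 20.4% and 20.2% for TKO, and neutrophil-like cells at 5.09%, 3.63%, 4.26% and 3.47% in the same order. No library of one class came near any library of the other, and the ratio between them was 5.09 ± 0.948 (3.88 to 5.89).

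**Figure D1:**
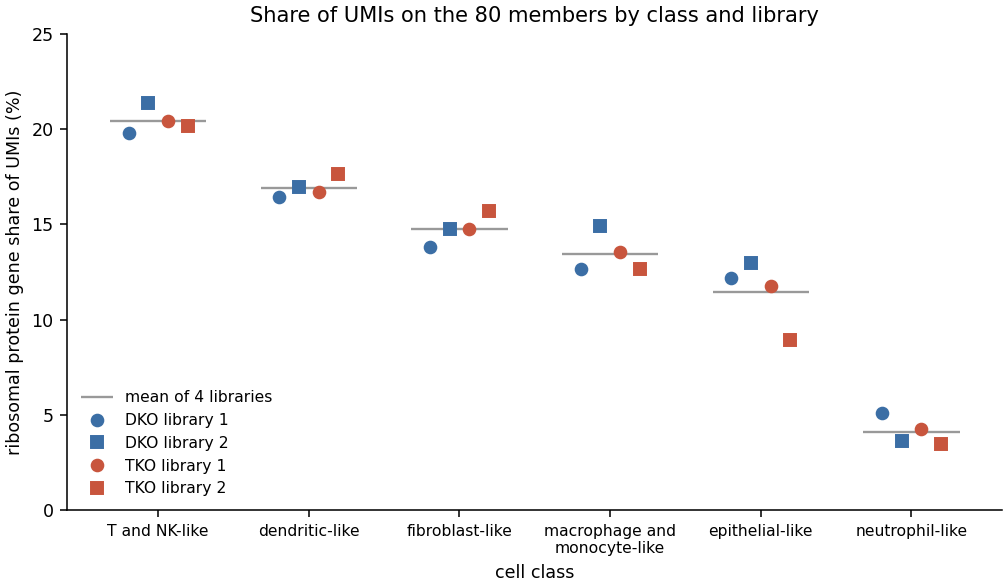
Share of UMIs on the 80 ribosomal protein genes (vertical axis, percent) in each cell class (horizontal axis); each point is 1 library, blue for DKO and red for TKO, and the grey line is the mean of the 4 libraries. Neutrophil-like cells lie between 3.47% and 5.09%, below every library of the other 5 classes, and T and NK-like cells between 19.8% and 21.4%, above them.

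Within libraries, T and NK-like exceeded dendritic-like cells by 3.50 ± 0.777 percentage points, dendritic-like exceeded fibroblast-like cells by 2.18 ± 0.331, macrophage and monocyte-like exceeded epithelial-like cells by 1.99 ± 1.33, and epithelial-like exceeded neutrophil-like cells by 7.34 ± 1.59, each in 4 of 4 libraries. For these 4 pairs the exact two-sided paired permutation test gave p = 0.12, the smallest that 4 libraries allow (0.156 after Benjamini-Hochberg adjustment over 5 neighbouring pairs). Fibroblast-like and macrophage and monocyte-like cells, neighbours in the order, differed by 1.30 ± 1.33 points, higher in fibroblast-like cells in 3 of 4 libraries (exact permutation p = 0.25, adjusted p = 0.25), which is not beyond their spread. Counting error was far smaller than any of these steps: the widest 95% exact (Clopper-Pearson) interval of a share reached 0.0779 points to either side, and it covers counting error only.

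Neutrophil-like cells also stood apart in other measures. Mitochondrial genes took 0.413% to 0.691% of UMIs in neutrophil-like cells and at least 2.22% in each library of the other 5 classes. With them removed from the total, neutrophil-like cells stood at 3.49% to 5.13% and T and NK-like cells at 20.3% to 21.9%. Median UMIs per cell were 6016 to 7173 in neutrophil-like, 11280 to 13178 in T and NK-like and 41525 to 55445 in fibroblast-like cells, so the class with the highest share was not the class with the most UMIs per cell. Markers of the other 5 classes, summed, stood in neutrophil-like cells at 0.764% to 6.14% of their level in their own class, T and NK markers at 1.04% to 2.33%. The part of depth and of free RNA in the shares was not tested, and no doublet caller was run.

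Classes were not uniform inside. Among the T and NK-like clusters, the NK-like cluster had 20.04% to 25.2%, the CD8 T-like cluster 19.2% to 24.1%, the naive or central memory T-like cluster 18.7% to 24.0% and the gamma-delta T-like cluster 18.1% to 20.6%. The regulatory T-like cluster was lower, at 13.8% and 16.2% for DKO and 14.7% and 16.7% for TKO, and did not overlap any of those 4. It did overlap cluster 13 (88 cells), at 16.4% to 18.3%. That cluster stayed unnamed but scored highest for T and NK markers and had 4 gamma-delta T markers raised. In the dendritic-like class, cluster 8 stood at 17.0% to 18.3%, cluster 16 at 14.6% to 16.1% and cluster 17 at 12.9% to 14.0%, again without overlap. These clusters were found in the same cells, so the differences are given with no test.

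The share also differed between the neutrophil-like clusters. Cluster 0 (460 cells, led by Stfa2l1, Rdh12 and Retnlg) had 2.31% and 2.35% in the DKO and 2.63% and 2.65% in the TKO libraries. Cluster 2 (288 cells), with 5 markers of the interferon response raised, had 2.54% to 3.30%. Cluster 1 (368 cells), in which the marker Siglecf was raised, had 8.37% and 6.67% in the DKO and 6.03% and 5.9999% in the TKO libraries, above every library of the other two. Cluster 3, which scored highest for neutrophil markers and stayed unnamed, had 4.79% to 5.14% (233 cells). All of these values lie below the lowest library of every other class in the fits.

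**Figure D2:**
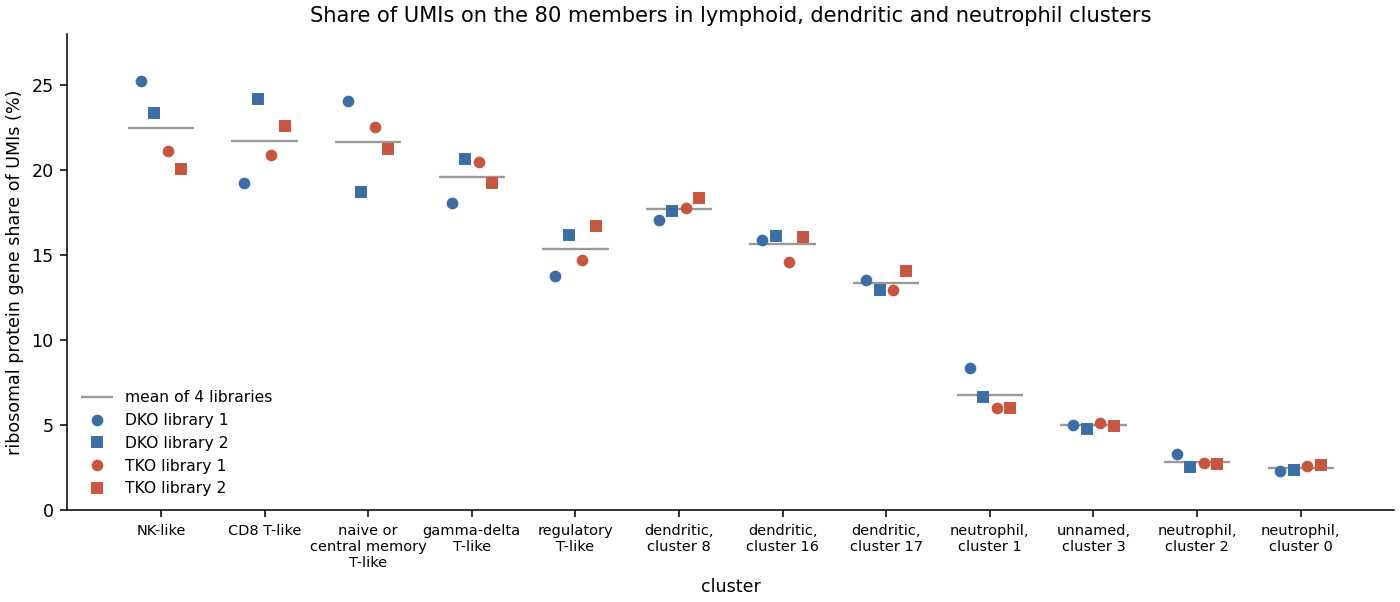
Share of UMIs on the 80 genes (vertical axis, percent) in 12 clusters (horizontal axis); points are libraries, blue for DKO and red for TKO, and grey lines are means of the 4 libraries. Regulatory T-like cells (13.8% to 16.7%) lie below the other lymphoid clusters shown, and neutrophil-like cluster 1 (up to 8.37%) above clusters 0 and 2.

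Tested gene by gene, most members moved in one direction in neutrophil-like, T and NK-like and dendritic-like cells, and fewer were called in the other 3 classes. The next values are log2 differences between the summed counts of a class and the mean of the other 5 classes, from edgeR's quasi-likelihood test over 12383 genes with TMM scaling, called at an adjusted p under 0.05; 78 members passed its filter on low counts, and Rpl39l and Rpl10l did not. In neutrophil-like cells 77 of 78 members were lower, where 34% of all genes were called lower, and 1 was higher, where 28.4% of all genes were. The members' median was -1.52 and that of all genes -0.27. In T and NK-like cells 70 members were higher and 2 lower (30.5% and 30.7% of all genes), with a median of 0.71 against -0.04. In dendritic-like cells 77 were higher and none lower by this edgeR test (22.5% and 20.4% of all genes; none was lower at an unadjusted p under 0.05 either), with a median of 0.60 against -0.05.

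The other 3 classes were less uniform. Outside neutrophil-like cells, the mean that a class is set against includes neutrophil-like cells, whose members' median was -1.52. A member called higher is thus higher than that mean, not than every other class. By mean share, macrophage and monocyte-like cells (13.4%) stood below T and NK-like, dendritic-like and fibroblast-like cells. In fibroblast-like cells 54 members were higher and 2 lower (36.4% and 27.4% of all genes), with a median of 0.36 against 0.10 over all genes. In epithelial-like cells 1 member was higher and 38 lower (30.4% and 24.7% of all genes), with a median of -0.25 against 0.03. In macrophage and monocyte-like cells 20 members were higher and none lower by edgeR (18.8% and 14.7% of all genes; none was lower at an unadjusted p under 0.05), a count that fell to 7 to 13 when 1 library was left out: 7 without DKO library 1, 8 without DKO library 2, 8 without TKO library 1 and 13 without TKO library 2. The 2 lower calls in fibroblast-like cells, Rps27 and Rps25, were 0 without DKO library 2 or without TKO library 1, and 4 calls were made without TKO library 2.

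To see which members depart from the rest, the summed UMIs of the 80 genes were used as library size, so that a difference of 0 means that a gene moved exactly with the ribosomal total of its class. A member was called departing at an adjusted p under 0.05 over all 12383 genes and an absolute log2 difference of at least 0.5. Of the 78 members tested, 51 departed in no class, and all 51 stayed under 0.5 in all 6 classes. The other 27 were 14 of the large and 13 of the small subunit. On this scale the median over all genes shifts with the class, from -0.70 in T and NK-like to 1.21 in neutrophil-like cells. The members' own median, between -0.04 and 0.05, is held near 0 by the scaling itself.

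**Figure D3:**
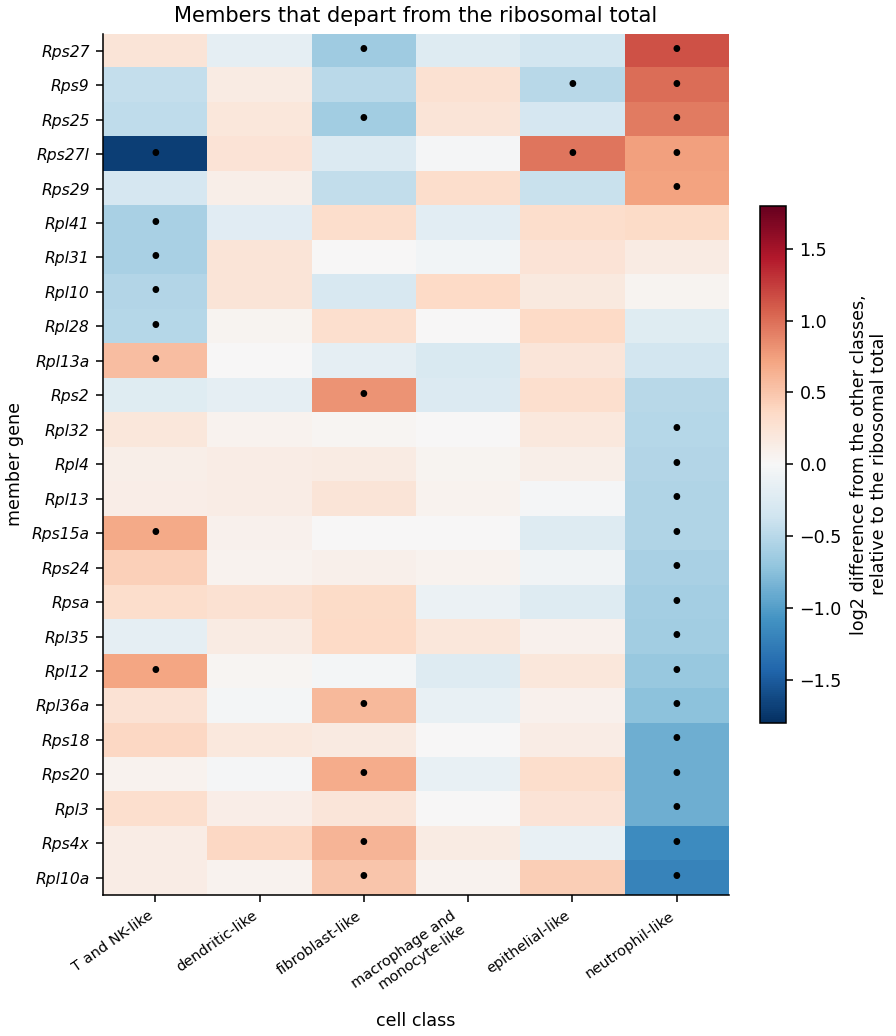
Log2 difference of each class from the mean of the other 5, relative to the ribosomal total (colour), for 25 of the 27 departing members (rows) in the 6 classes (columns); a dot marks a call. Neutrophil-like cells hold the most calls, with Rps27 (1.14), Rps9 (1.00) and Rps25 (0.94) at the top and Rps4x (-1.13) and Rpl10a (-1.20) at the bottom.

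Neutrophil-like cells had the most departures, 6 higher and 14 lower members; on this scale 63.5% of all genes were called higher and 4.29% lower. Rps27, a zinc-finger protein of the small subunit, made up 3.15% and 4.46% of the ribosomal protein UMIs for DKO and 4.19% and 4.70% for TKO. In the other 5 classes it made up 1.37% to 2.56%, so no library of neutrophil-like cells overlapped them. The difference was 1.14 ± 0.11 (SE) on the log2 scale (edgeR adjusted p = 1.26e-09). Relative to all UMIs, Rps27 was still lower in neutrophil-like cells than elsewhere, by -0.36 on the TMM scale, but far less so than the median member. Rps27rt, a near-identical retrocopy, is counted separately and could share reads with Rps27.

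Rps9, a protein that binds ribosomal RNA near the entry of the mRNA channel, behaved alike. It made up 2.43% and 3.09% of ribosomal protein UMIs in the DKO and 2.85% and 2.99% in the TKO libraries of neutrophil-like cells. The highest value in any library of another class was 1.94%, in macrophage and monocyte-like cells, so the ranges did not overlap. The difference was 1.00 ± 0.09 (SE; edgeR adjusted p = 1.58e-09). Rps25, a small-subunit protein needed for initiation on some internal ribosome entry sites, made up 1.42%, 1.43%, 1.52% and 1.56% in the DKO and TKO libraries in order. Elsewhere it ranged from 0.547% to 1.09%, and the difference was 0.94 ± 0.09 (SE; edgeR adjusted p = 5.49e-09). Rps25 overlaps Trappc4 and Ccdc84, which lie on the opposite strand, as do genes that overlap Rps18, Rpl35, Rpl3, Rpl31 and Rpl10a; whether counting used strand is not stated in the labels.

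Rps29 made up 4.53% and 5.01% in the DKO and 4.89% and 5.17% in the TKO libraries of neutrophil-like cells. Macrophage and monocyte-like cells came nearest, at 3.60% to 4.13%, and the difference from the mean of the other classes was 0.73 ± 0.09 (SE; edgeR adjusted p = 2.24e-07). The remaining members raised against the total were Rps27l and Rpl3l, described with the paralogs.

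The members that fell furthest below the ribosomal total in neutrophil-like cells were Rpl10a, the protein of the L1 stalk of the large subunit, and Rps4x, the X-linked Rps4 gene. Rpl10a made up 0.442% and 0.302% in the DKO and 0.331% and 0.288% in the TKO libraries, against 0.666% to 0.962% elsewhere. Its difference was -1.20 ± 0.12 (SE; edgeR adjusted p = 8.85e-09). Rps4x made up 0.603%, 0.574%, 0.507% and 0.413%, against 0.820% to 1.49% elsewhere, with a difference of -1.13 ± 0.12 (SE; edgeR adjusted p = 1.02e-08). In neither gene did any neutrophil-like library reach the lowest library of another class. Rpl3, which lies at the peptidyl transferase centre, was at -0.89, Rps20 at -0.88 and Rps18 at -0.88, each with the same sign in 4 of 4 libraries.

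The other 9 lower members were Rpl36a (-0.73), Rpl12 (-0.68), Rpl35 (-0.62), Rpsa (-0.61), Rps24 (-0.58), Rps15a (-0.54), Rpl13 (-0.54), Rpl4 (-0.52) and Rpl32 (-0.51). Of the 14 lower members, 11 have a start window in the RefSeq table and 3 of them, Rps15a, Rps18 and Rpl35, carry the run shown above. Of the 6 higher members, 5 have a window and 1 of them, Rps27, carries it. Set against T and NK-like cells directly, CPM in neutrophil-like cells had a median of 19.3% over the 77 members with at least 10 UMIs in each T and NK-like library. Rpl12 was lowest, at 9.23% ± 3.16 (SD, n = 4), and Rps9 stood at 45.8% ± 4.67, Rps25 at 45.4% ± 8.54 and Rps27 at 33.6% ± 2.28.

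The departures differed between neutrophil-like clusters. Rps27 made up 6.004% to 6.60% of ribosomal protein UMIs in cluster 0 and 4.80% to 6.66% in cluster 2, but 2.17% to 3.11% in cluster 1, which overlapped the 2.21% to 2.56% of T and NK-like cells. Rps9 followed the same order, at 4.21% to 5.44% in cluster 0, 2.69% to 4.44% in cluster 2 and 1.60% to 1.89% in cluster 1, where it still lay above the 1.22% to 1.26% of T and NK-like cells. Rps25 did not follow that order: it made up 1.44% to 1.63%, 1.38% to 1.63% and 1.34% to 1.58% in clusters 0, 2 and 1. Rps29 was also alike in the 3 clusters, at 4.32% to 5.38%. Rps27l ran the other way, at 0.138% to 0.274% in cluster 0 and 0.424% to 0.577% in cluster 1. Unnamed cluster 3 overlapped cluster 1 in Rps9 (1.59% to 1.91%) and in Rps27l (0.471% to 0.820%) but lay above it in Rps27 (3.41% to 3.77%).

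**Figure D4:**
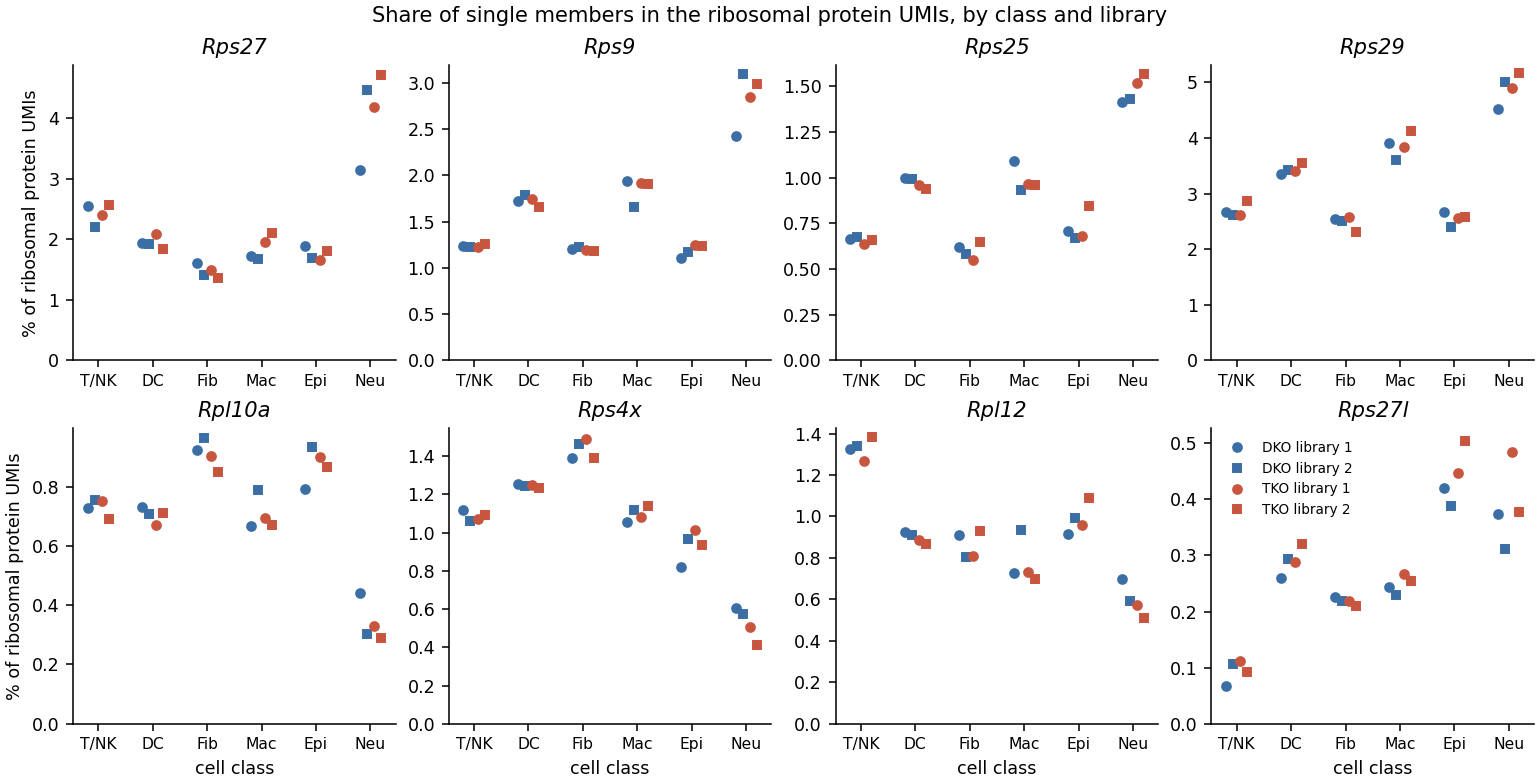
Percent of ribosomal protein UMIs (vertical axis, from 0) taken by 8 members in T and NK-like (T/NK), dendritic-like (DC), fibroblast-like (Fib), macrophage and monocyte-like (Mac), epithelial-like (Epi) and neutrophil-like (Neu) cells; each point is 1 library. Rps27, Rps9, Rps25 and Rps29 are highest and Rpl10a and Rps4x lowest in the neutrophil-like column in every library, and Rps27l is lowest in T and NK-like cells.

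In T and NK-like cells 3 members departed upwards (11.4% of all genes) and 6 downwards (51.4%). Rpl12, part of the stalk base of the large subunit, made up 1.33% and 1.34% in the DKO and 1.27% and 1.38% in the TKO libraries, above the 0.511% to 1.09% of the other classes, a difference of 0.71 ± 0.11 (SE; edgeR adjusted p = 4.18e-06). Rps15a stood at 2.06% to 2.14% there against 0.955% to 1.54% elsewhere (0.68), and Rpl13a at 1.63% to 1.74% against 0.946% to 1.52% (0.55). Both are without overlap. Rpl31 (-0.59), Rpl41 (-0.59), Rpl10 (-0.53) and Rpl28 (-0.51) were lower, as were Rps27l and Rpl3l. Rpl41 made up 1.73% to 1.90% in T and NK-like cells and at least 2.05% in every other library and class. Without DKO library 1, lower departures fell from 6 to 4, as Rpl10 (-0.49) and Rpl28 were no longer past the fold limit.

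In fibroblast-like cells 5 members were higher (24.5% of all genes) and 3 lower (35.4%). Rps2, a small-subunit protein that overlaps Snhg9 on the opposite strand, made up 1.77% and 1.97% in the DKO and 1.91% and 1.86% in the TKO libraries, and 0.746% to 1.56% elsewhere. Its difference was 0.81 ± 0.10 (SE; edgeR adjusted p = 4.88e-07), and no other class overlapped. Rps20 (0.67), Rps4x (0.61), Rpl36a (0.58) and Rpl10a (0.50) were the other higher members, and Rps27 (-0.64), Rps25 (-0.63) and Rpl3l the lower ones. Rpl10a lost its call without DKO library 2, at 0.49. Because each class is set against the mean of the others, a gene that is low in neutrophil-like cells enters the fibroblast-like comparison from the other side, and the 2 contrasts share their libraries.

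Epithelial-like cells had 1 higher member, Rps27l (37.1% of all genes were higher), and 2 lower, Rps9 and Rpl3l (15.5% of all genes). Rps9 was at -0.50 there, at the limit, and lost its call without DKO library 1 (-0.48) or without DKO library 2 (-0.49). Dendritic-like cells had 2 members higher, Rpl3l among them, and none lower (9.88% and 45.9% of all genes; 1 member was lower at an unadjusted edgeR p under 0.05). In macrophage and monocyte-like cells Rpl3l was the only member called, upwards (12.5% of all genes were higher and 18.9% lower; at an unadjusted edgeR p under 0.05, 7 members were higher and 3 lower).

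Rps27l, a copy of Rps27 known as a p53 target gene, made up 0.421% and 0.388% of ribosomal protein UMIs in the DKO and 0.447% and 0.504% in the TKO libraries of epithelial-like cells. It made up 0.067% to 0.113% in T and NK-like cells and 0.311% to 0.484% in neutrophil-like cells, so the epithelial-like and neutrophil-like ranges overlapped and the T and NK-like range stood below every other. Its differences were 0.97 ± 0.11 in epithelial-like, 0.74 ± 0.12 in neutrophil-like and -1.70 ± 0.14 in T and NK-like cells (SE; edgeR adjusted p = 2.13e-07, 6.11e-06 and 9.79e-10). Rps27 itself was at -0.33 in epithelial-like and 0.23 in T and NK-like cells, under the fold limit in both. With finer clusters or the stricter cell filter, a cluster led by Siglecf and Ltc4s (228 and 353 cells) stayed unnamed. Rps27l in the neutrophil-like class was then at 0.37 and 0.41 and lost its call. The part of that cluster in the change was not tested.

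Rpl3l, the muscle copy of Rpl3, was counted 26 and 30 times in neutrophil-like cells of the DKO and 28 and 25 times in those of the TKO libraries, 109 of its 234 UMIs. Dendritic-like cells held 19, 27, 15 and 5 UMIs and macrophage and monocyte-like cells 4, 9, 16 and 3, while all T and NK-like cells together held 2 UMIs and all epithelial-like cells 3. Its calls rest on these few counts, so no fold is given, and its calls in epithelial-like, fibroblast-like and macrophage and monocyte-like cells were lost when DKO library 2, DKO library 1 or TKO library 1, and TKO library 1 were left out in turn. Rpl3l lies at chr17:24727820-24736143 on the plus strand and ends 498 bases before Msrb1, which encodes a methionine sulfoxide reductase and lies on the same strand. Msrb1 stood at 676, 847, 803 and 1162 CPM in neutrophil-like, 378 to 455 CPM in macrophage and monocyte-like, 56.4 to 151 CPM in dendritic-like and 21.5 to 27.5 CPM in T and NK-like cells. Its part in the Rpl3l counts was not tested. Rpl3, by contrast, was among the members furthest below the ribosomal total in neutrophil-like cells.

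Rpl39l was counted 13 times in T and NK-like and 9 times in dendritic-like cells, beside 50941 and 24652 UMIs of Rpl39 there. Rpl10l had its 1 UMI in an epithelial-like cell, beside 9833 UMIs of Rpl10 in that class. Rpl36a departed downwards in neutrophil-like cells. Its partner Rpl36al, which lies outside the naming rule, was at -1.59 ± 0.13 there on the TMM scale (SE, edgeR adjusted p = 2.06e-10). That value lies near the median member's -1.52 on the same scale. Rpl22, which also binds RNA outside the ribosome and is required for T cell development, stayed near the total in all 6 classes, from -0.12 to 0.15. Its copy Rpl22l1, given on the TMM scale, was at 1.58 ± 0.10 in fibroblast-like, 0.74 ± 0.11 in T and NK-like and -2.20 ± 0.14 in neutrophil-like cells (SE, edgeR adjusted p = 6.91e-12, 4.57e-06 and 3.97e-12). On that TMM scale the median member was at 0.36, 0.71 and -1.52 in those classes. Rpl22l1 thus stood near the median member in T and NK-like cells and further from 0 than it in fibroblast-like and neutrophil-like cells.

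Of 8 further ribosomal protein genes and copies that the naming rule leaves out, Fau and Rpl7l1 kept more of their T and NK-like level in neutrophil-like cells than the median member did. Fau encodes a small-subunit protein fused to a ubiquitin-like domain. It stood at 2927 and 2749 CPM in the DKO and 2848 and 2656 CPM in the TKO libraries of neutrophil-like cells, and at 4068 to 4172 CPM in T and NK-like cells. The groups did not overlap, but neutrophil-like cells kept 68.0% ± 3.53 (SD, n = 4) of the T and NK-like level, where the median member kept 19.3%. Against the mean of all other classes Fau was at 0.20 ± 0.10 (SE, TMM scale; edgeR adjusted p = 0.0713). Rps3a1, a small-subunit protein, was at -1.73, near the members' median. Rpl7l1, a nucleolar relative of Rpl7, was at 0.06 with 27.3 to 49.2 CPM, 93.3% ± 36.5 (SD, n = 4) of its T and NK-like level. In all, 1 of the 8 was higher in neutrophil-like cells, Rps27rt (0.27; edgeR adjusted p = 0.0421), and 4 were lower.

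Among the stalk proteins, Rplp0, the stalk base, ranged from -0.32 to 0.31 over the 6 classes, Rplp1 from -0.42 to 0.33 and Rplp2 from -0.39 to 0.39, all under the fold limit. Rps6, whose phosphorylation reports mTORC1 activity, ranged from -0.21 to 0.26. Rpsa, also known as the laminin receptor precursor, reached the limit in neutrophil-like cells alone among the classes. By subunit, small-subunit genes took 46.2% ± 0.760 (SD, n = 4) of ribosomal protein UMIs in neutrophil-like and 41.7% ± 0.111 in epithelial-like cells, with 43.1% in fibroblast-like, 44.3% in T and NK-like, 44.8% in macrophage and monocyte-like and 45.2% in dendritic-like cells. The neutrophil-like libraries, at 45.4% to 47.1%, overlapped neither the epithelial-like nor the fibroblast-like ones, and their lowest value lay within the ranges of macrophage and monocyte-like and of dendritic-like cells.

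Other genes of protein synthesis are given beside the members on the TMM scale of the class comparison. Of all 12383 genes, 3522 were called higher and 4207 lower in neutrophil-like cells. In T and NK-like cells 3780 were higher and 3806 lower. In neutrophil-like cells 22 of 30 initiation and elongation factors were lower and 4 higher (median -0.84), among them Rack1, a scaffold on the small subunit (-2.10), Eif3f (-2.10) and Eef1a1 (-1.66), while Eif1 was higher (1.42). Of 36 ribosome biogenesis genes, 25 were lower and 2 higher there, with the nucleolar protein Npm1 at -1.72 and Rrp1b at 1.44. Of 78 mitochondrial ribosomal protein genes, 66 were lower and 3 higher, with a median of -0.73, less than the cytosolic members' -1.52. In T and NK-like cells the 2 sets of ribosomal protein genes did not move alike: 7 mitochondrial genes were higher and 31 lower (median -0.27), where 70 of the cytosolic genes were higher.

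Dissociation and early stress genes moved with the classes as well. In neutrophil-like cells 7 of 14 were higher and 1 lower, with Dusp1 at 2.35 and Junb at 1.92, and in T and NK-like cells 11 were lower and none higher (edgeR; all 14 were negative). Fibroblast-like and epithelial-like cells had 10 and 9 higher, and dendritic-like cells 10 lower. Of all 12383 genes, 4509 and 3768 were higher in the former classes and 2531 were lower in dendritic-like cells. Their part in the ribosomal shares was not tested. Of 16 tested regulators of ribosomal protein mRNA, 3 were higher and 5 lower in neutrophil-like cells. Neither share exceeded that of all genes (3522 higher and 4207 lower of 12383). Among those called were Max, the partner of Myc (1.17), Larp1 (-0.82) and Pdcd4, an inhibitor of initiation (-1.46). In T and NK-like cells 7 were higher and 4 lower, where 3780 and 3806 of all 12383 genes were. Pdcd4 was at 2.46 there and Eif4ebp1, an inhibitor that mTORC1 switches off, at -2.84.

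Between genotypes, 2 against 2 libraries allow no exact permutation p below 0.33. The test therefore cannot decide whether the share of ribosomal protein UMIs differed. In epithelial-like cells it was 12.2% and 12.95% in the libraries labelled DKO and 11.7% and 8.93% in those labelled TKO. Both TKO values lay below both DKO values, a difference of -2.23 points, with TKO library 2 (26 epithelial-like cells) furthest down. Without that library the difference was -0.83, and without TKO library 1 it was -3.64. With finer clusters (Leiden resolution 2.0) the epithelial-like class split into a luminal-like and a basal-like cluster. The luminal-like cluster (median 8378 UMIs per cell) held 17 and 50 cells for DKO and 36 and 23 for TKO. The basal-like cluster (median 56286) held 18 and 38 for DKO and 16 and 3 for TKO. The part of this mix in the difference was not tested. In fibroblast-like cells the shares were 13.8% and 14.7% for DKO and 14.7% and 15.7% for TKO, 0.95 points higher in TKO. The nearest libraries of the groups there, DKO library 2 at 14.7317% and TKO library 1 at 14.7344%, lay within each other's counting interval, so the groups touch. The difference was 0.49 without DKO library 1 or 0.46 without TKO library 2. Both gave exact permutation p = 0.33 (two-sided), the smallest that 2 against 2 libraries allow, and 0.8 after adjustment over 6 classes.

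In the other 4 classes the groups overlapped. The TKO minus DKO difference was -0.29 points in T and NK-like, -0.49 in neutrophil-like, -0.70 in macrophage and monocyte-like and 0.45 in dendritic-like cells (exact permutation p = 0.667 to 1, adjusted p = 0.8 to 1). Over all cells the share was 12.2% and 14.3% in the DKO and 14.2% and 15.1% in the TKO libraries, a mixture in which T and NK-like cells were 89 of 617 and 206 of 759 cells in the DKO and 332 of 1208 and 297 of 797 in the TKO libraries. Medians over cells gave differences of the opposite sign in epithelial-like (0.23) and fibroblast-like cells (-0.30).

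No member was called between TKO and DKO in any of the 6 classes or in all cells summed (edgeR, adjusted p under 0.05). Of all genes, 0.0275% were called higher and 0.0275% lower in T and NK-like cells, 0.0118% higher in neutrophil-like, 0.0264% higher in macrophage and monocyte-like, and 0.011% higher and 0.022% lower in dendritic-like cells, and 0% in each other case. At an unadjusted p under 0.05, edgeR gave 1 higher and 1 lower member in T and NK-like cells, 1 and 2 in macrophage and monocyte-like cells, 1 and 1 in dendritic-like cells, 1 and 0 in all cells, and none in the other 3 classes. DESeq2 called 1 member, Rpl29, in T and NK-like cells, where it called 7 of all 10928 genes higher and 13 lower. It called the same member in dendritic-like cells, where it called 14 of 9074 higher and 10 lower. In epithelial-like cells the members' median log2 difference was -0.25 (all genes 0.02), 1 of 77 members was positive, and 47 lay with both TKO libraries below both DKO libraries, where 20.6% of all genes did. Without TKO library 2 that median was -0.00. The dissociation and stress genes were positive in 14 of 14 cases in epithelial-like cells (median 0.44) and in 12 of 14 in fibroblast-like cells (median 0.33), none called by edgeR, and their part in the members' values was not tested. In fibroblast-like cells 29 of 77 members lay above without overlap (16% of all genes) and none below (15.9%), with a median of 0.10.

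Dendritic-like cells had 20 of 78 members above and 5 below without overlap (15.8% and 20.7% of all genes), and all cells summed had 30 of 79 above and 1 below (24.6% and 21.2%). T and NK-like cells had 2 and 6 (18.6% and 15.5% of all genes), macrophage and monocyte-like cells 2 and 11 (22.5% and 15.3%), and neutrophil-like cells 1 and 2 of 78 (18.8% and 10.9%). On the scale of the ribosomal total no member was called between the genotypes in any class either (edgeR; of all genes, 0.0103% were higher in epithelial-like, 0.0183% higher and 0.0183% lower in T and NK-like, 0.0264% higher in macrophage and monocyte-like, and 0.011% higher and 0.022% lower in dendritic-like cells, and 0% elsewhere), and on that scale 1 higher and 1 lower member had an unadjusted p under 0.05 in T and NK-like and in dendritic-like cells and 1 higher in macrophage and monocyte-like cells and in all cells.

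Rpl29 had the smallest p among the members in 5 of these 7 comparisons. Rpl29, a large-subunit protein of low abundance here, lies at chr9:106429454-106431568 on the plus strand. In T and NK-like cells it stood at 530 and 555 CPM in the DKO and 813 and 1012 CPM in the TKO libraries. In dendritic-like cells it stood at 442 and 428 CPM and at 689 and 910 CPM. Both TKO libraries were above both DKO libraries in either class. The log2 difference was 0.74 ± 0.15 (SE) in T and NK-like cells (edgeR adjusted p = 0.277) and 0.93 ± 0.17 in dendritic-like cells (edgeR adjusted p = 0.189), neither of which passed the threshold. With DESeq2 on the same libraries, Rpl29 did pass it, at 0.73 (DESeq2 adjusted p = 0.0238) and 0.93 (DESeq2 adjusted p = 0.00816) in that order.

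The same order was found in macrophage and monocyte-like cells, at 385 and 428 CPM against 588 and 697 CPM (0.60), in fibroblast-like cells, at 554 and 572 against 659 and 843 CPM (0.42), and in epithelial-like cells, at 504 and 487 against 626 and 568 CPM (0.28). In neutrophil-like cells the groups overlapped, at 148 and 88.4 CPM against 148 and 141 CPM. Cluster by cluster, both TKO libraries were above both DKO libraries for Rpl29 in 12 of the 14 clusters with at least 10 cells in each library, with TKO over DKO ratios of 1.21 to 1.83 in those 12; the 2 exceptions were neutrophil-like clusters 1 and 2. Of 4581 genes with a UMI in every library of these clusters, 0.0655% did so in at least 12 clusters, and no other member did. These clusters come from the same 4 libraries and do not add to their number. In T and NK-like cells Rpl29 passed the edgeR threshold without TKO library 1 (0.89, adjusted p = 0.0466) and in dendritic-like cells likewise (1.16, adjusted p = 0.00300); over all alternatives tried, its adjusted p ran from 8.47e-04 to 1.00 in T and NK-like and from 9.70e-08 to 0.462 in dendritic-like cells. GENCODE holds 3 pseudogenes named after Rpl29, none of which is in the count tables.

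Rplp1 moved the other way. It stood at 5720 and 5794 CPM in T and NK-like cells of the DKO and 4848 and 4738 CPM in those of the TKO libraries, without overlap, a log2 difference of -0.27 ± 0.09 (SE; edgeR adjusted p = 0.692). It was at -0.49 in macrophage and monocyte-like, -0.51 in neutrophil-like and -0.50 in epithelial-like cells, and at 0.16 in fibroblast-like cells. The median member moved the same way in these classes, at -0.13, -0.24, -0.25 and 0.10 in that order. Both TKO libraries lay below both DKO libraries in 10 of the 14 clusters, which 0.131% of the 4581 genes did in at least 10 clusters, and above them in 1, the fibroblast-like cluster. Rpl3l in dendritic-like cells had the second smallest p there, with the 19 and 27 UMIs in DKO against 15 and 5 in TKO given above (15.8, 17.0, 5.02 and 2.82 CPM; edgeR adjusted p = 0.278). No gene of the other protein synthesis lists or of the dissociation and stress list was called between the genotypes in any class by edgeR. Leaving out mitochondrial ribosomal proteins, the smallest unadjusted edgeR p in these lists was that of Hspa1a, a stress gene, in neutrophil-like cells (7.97e-04).

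**Figure D5:**
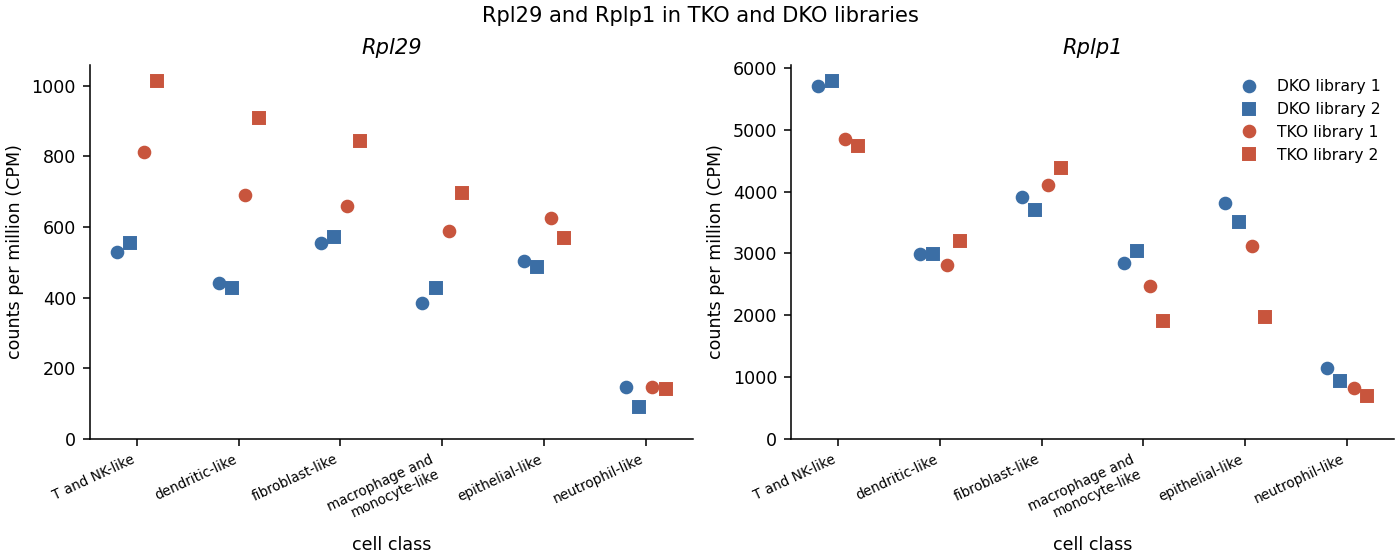
CPM (vertical axes, from 0) of Rpl29 (left) and Rplp1 (right) in the 6 cell classes; each point is 1 library, blue for DKO and red for TKO. For Rpl29 both TKO points lie above both DKO points in 5 classes, at 813 and 1012 against 530 and 555 CPM in T and NK-like cells, and overlap in neutrophil-like cells, and for Rplp1 they lie below in T and NK-like, macrophage and monocyte-like, epithelial-like and neutrophil-like cells.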

How the data were processed

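Single-cell RNA-seq counts were deposited by the authors as 1 matrix of raw UMI counts per gene and cell barcode for each of the 4 libraries, made with Cell Ranger 7.0.0 and STAR on mm10 per the submitters' processing notes; whether intronic reads were counted is not given in the sources used here, and reads that fit several loci can lower members with pseudogenes. A cell was kept (3381 of 3508) if it had 200 or more genes and no more than 20% of its UMIs on mitochondrial genes. Cells were clustered with scanpy 1.11.5 (2000 variable genes, 30 components, 20 neighbours, Leiden resolution 1.0) with the 80 genes left out, and clusters were named from marker lists where at least 3 markers were raised; no doublet caller was run.

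UMIs were summed per library and class and tested over all genes with edgeR 4.0.16 (quasi-likelihood, Benjamini-Hochberg), with DESeq2 1.42.0 as an alternative, in R 4.3.3. Shares were compared with exact permutation tests (scipy 1.17.1). The edgeR procedure was tested on simulated data. The members, gene lists and tests were chosen with earlier results of these data known. Named genes were the 5 highest and 5 lowest members, up to 5 departing members each way per class, the 5 smallest p-values between genotypes where fewer than 3 were called, paralogs, Rpsa, Rplp0, Rplp1, Rplp2, Rps6 and Rpl22; genes outside the members were up to 4 per list by p-value, and cluster-level genes beside these were chosen after their values were seen. Start-site sequences are RefSeq's (GRCm38.p6). The 6 hashtag features were not used. Some genes are not reported here.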

Additional observations from a re-analysis of the deposited data

Results flagged for a closer look

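The share of ribosomal protein UMIs differed between genotypes in opposite directions in 2 classes. It was higher in both TKO than in both DKO libraries in fibroblast-like cells and lower in both in epithelial-like cells, which put the TKO minus DKO differences 3.18 percentage points apart. In fibroblast-like cells that order rests on 14.7317% in DKO library 2 against 14.7344% in TKO library 1, a step inside counting error. The difference between the classes was not tested. Medians over cells had the opposite sign in both classes, and the epithelial-like difference was -0.83 points without TKO library 2 against -2.23 with it. The mix of luminal-like and basal-like cells within the epithelial-like class also differed between libraries.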

How the results depend on the processing

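The values that answer a comparison were recomputed under the alternatives. In 406 cases a difference in share kept its sign or a count of calls was equal or within 1.5 times. Counts that were 0 and stayed 0 are among them, as is the order of the class shares. Another 24 counts moved further, changes from or to 0 included, and 11 differences in share changed sign. TKO minus DKO differences in share were less stable. Medians over cells gave 0.231 points in epithelial-like, -0.300 in fibroblast-like, 0.579 in T and NK-like and 0.384 in neutrophil-like cells. Leiden resolution 2.0 gave 0.242 in T and NK-like and 0.0111 in neutrophil-like cells, and the stricter cell filter gave 0.0109 in the latter. With 1 library left out, the differences ran from -1.09 to 0.515 in T and NK-like, -1.22 to 0.236 in neutrophil-like, -1.83 to 0.437 in macrophage and monocyte-like and -0.0205 to 0.917 in dendritic-like cells. With no filter on low counts, members called between genotypes were 1 in T and NK-like and 2 in dendritic-like cells on both scales, and DESeq2 called 1 in each class. Leaving out 1 library gave 0 to 1 calls in T and NK-like and dendritic-like cells, and 0 to 1 in dendritic-like cells on the ribosomal scale. Of named genes between genotypes in T and NK-like cells, Rpl10 ran from -0.017 to 0.30 and Rpl32 from -0.20 to 0.00064. Higher members in macrophage and monocyte-like cells numbered 40 under the stricter filter, 12 with no filter on low counts and 7 to 13 with 1 library left out, and lower members in fibroblast-like cells 0 to 4. Departures with 1 library left out numbered 1 to 2 higher and 0 to 2 lower in epithelial-like cells and 0 to 1 higher in macrophage and monocyte-like cells. The cause of these changes was not tested. A lone library left in a group is assumed to vary like the others.

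Replicate numbers are shared between genotypes, but no label says that they mark a shared litter, batch or day, and there are only 2 pairs. The correlation of same-numbered libraries' deviations ran from -0.045 to 0.36 over the classes. With the replicate block, edgeR called 1 member in neutrophil-like cells (Rplp1), where 111 of all 8479 genes were higher and 123 lower (1 and 0 without it), and, on the ribosomal scale, 1 in T and NK-like cells, where 57 of 10928 genes were higher and 63 lower. In an alternative added after the data were seen, the unnamed clusters scored as neutrophil were put back into the class, and the share difference from epithelial-like cells was 7.22 points against 7.34 (ribosomal protein share of UMIs, epithelial minus neutrophil). Departures in neutrophil-like cells were 5 higher and 20 lower at resolution 2.0 and 6 higher and 19 lower under the stricter filter. Counting error was at most 0.0779 points per share, for pooled UMIs and not for the choice of cells.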

Other observations

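Classes with too few cells for a comparison spread more widely. In B and plasma-like cells (53 cells) the ribosomal protein share was 15.3% and 8.18% for DKO and 21.8% and 21.04% for TKO. The mix inside this class differed between libraries. At Leiden resolution 2.0 a plasma-like cluster held 3 and 8 cells for DKO and 0 and 5 for TKO. A cluster led by Bank1, Cd79a and Ebf1 held 7 and 1 for DKO and 21 and 7 for TKO. The part of this mix in the shares was not tested. In mast and basophil-like cells (14 cells) it ran from 11.9% to 17.7%, and in endothelial-like cells (13 cells) from 6.36% to 15.1%. Unnamed cluster 20 (30 cells), led by Il5, Csf2 and Calca, had 20.5% to 25.7%, and unnamed cluster 13 (88 cells), led by Cd163l1, Trdv4 and Trdc, had 16.4% to 18.3%. Besides Rpl29, the genes higher in both TKO libraries in at least 12 of 14 clusters were Sh3bgrl3 in 14 and Gm26740 in 13.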
